A study of Mus musculus with 6 samples.

Results

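Of the 55487 genes in the count table, 10 that code for proteins of the milk fat globule membrane, for mucins of the mammary epithelial surface, or for 2 proteins secreted with milk were taken by symbol: Glycam1, Btn1a1, Mfge8, Plin2, Muc1, Muc4, Muc15, Muc20, Cel and Pigr. The RNA came from mammary epithelial cells (MECs) of 10-week-old virgin female BALB/c mice, 3 wild-type and 3 IL-21isoTg, with 1 library for each mouse. IL-21isoTg mice express a membrane-bound isoform of IL-21, a T cell cytokine, specifically in T cells, and not by design in the epithelial cells that were sequenced. The promoter that drives it is not given in the sources used here. The MECs were what remained of the dissociated glands once cells bearing CD45 (leukocytes), CD31 (endothelium) or CD140a (fibroblasts) had been taken out on magnetic particles, and the stage of the estrous cycle was left to vary. The study examined these glands for early changes, at an age before tumors form.

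A milk fat globule begins as a lipid droplet in the luminal epithelial cell. Plin2, perilipin 2, coats the droplet in the cytoplasm; Btn1a1, butyrophilin, lies in the apical membrane and acts with xanthine dehydrogenase (Xdh) while that membrane wraps the droplet and buds into the lumen. The shed membrane also carries Mfge8 (lactadherin, which binds phosphatidylserine and integrins) and the transmembrane mucins Muc1, Muc4 and Muc15. Glycam1 codes for a small mucin-like glycoprotein that is abundant in milk and, in its sulfated form on high endothelial venules, is a ligand of L-selectin. Cel codes for the bile salt-stimulated lipase that is made by exocrine pancreas and lactating gland. Pigr codes for the polymeric immunoglobulin receptor, which carries dimeric IgA across the epithelium and is released with it as secretory component. Muc20 is a further membrane-bound mucin.

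The libraries held 15902886 to 25719244 counts, and levels are given in CPM, where the library size is the total adjusted by the trimmed mean of M-values (TMM), for which 3 counts in a library correspond to 0.112 to 0.280 CPM. The transgene was checked first: Il21 had 0, 0 and 37 counts in the wild-type libraries and 795, 216 and 131 in the IL-21isoTg libraries (exact two-sided permutation test, p = 0.1, the smallest value that 3 against 3 allows). Luminal markers were abundant in every library, at a summed 5721 to 9460 CPM over 12 genes, and 12 leukocyte markers summed to 22.4 to 38.4 CPM. A list of 16 salivary gland markers, among them Bpifa2 and Amy1, took 22.9%, 6.59% and 15.7% of counts in wild-type replicates 1 to 3 and 22.5%, 4.92% and 41.0% in IL-21isoTg replicates 1 to 3 (exact two-sided permutation test, p = 0.7). IL-21isoTg replicate 3, with the largest salivary share and the fewest counts, stood apart and results are given with and without it. In bulk RNA, a change in the number of cells of a type cannot be told apart from a change in RNA per cell.

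The 10 genes lie on 8 chromosomes of the mouse genome (GRCm38/mm10). Muc4 (chr16:32735886-32782391, plus strand, up to 27 exons) and Muc20 (chr16:32777419-32797435, minus strand) overlap tail to tail over 4973 bp, which includes 627 bp of exon, or 15.6% of the exonic length of Muc20. Muc15 (chr2:110721340-110739527, plus strand) lies inside the span of Ano3 on the other strand and shares 61 exonic bp with it. The count table does not state whether strand was used, so how reads in these shared stretches were assigned is not known. The remaining genes were Glycam1 (chr15:103562759-103565081), Btn1a1 (chr13:23456992-23465901), Mfge8 (chr7:79133768-79149060), Plin2 (chr4:86648386-86670060) and Cel (chr2:28555795-28563403) on minus strands, and Muc1 (chr3:89229057-89233381) and Pigr (chr1:130826684-130852249) on plus strands.

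The 250 bases before the transcription start (RefSeq, GRCm38.p6) were available for 8 of the 10 genes. Those of the 2 genes with the smallest p-values (Glycam1 and Cel), of Muc1 as the apical mucin and of Pigr, whose levels ran differently from the others, are shown 5′ to 3′ on the coding strand. Capitals mark matches to TTCNNNGAA, the letters bound by STAT5, which prolactin activates, or to an E-box or TATA box.
Glycam1, chr15:103565082-103565331, minus strand: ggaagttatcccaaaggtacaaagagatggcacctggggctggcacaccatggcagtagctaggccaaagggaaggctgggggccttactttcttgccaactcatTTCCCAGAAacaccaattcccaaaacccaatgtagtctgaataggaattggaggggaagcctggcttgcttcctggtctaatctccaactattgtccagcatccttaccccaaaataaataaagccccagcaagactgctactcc
Cel, chr2:28563404-28563653, minus strand: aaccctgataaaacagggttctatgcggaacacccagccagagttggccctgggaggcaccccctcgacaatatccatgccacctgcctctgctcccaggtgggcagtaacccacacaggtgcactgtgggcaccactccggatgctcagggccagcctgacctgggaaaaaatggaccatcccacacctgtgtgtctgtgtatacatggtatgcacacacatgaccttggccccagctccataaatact
Muc1, chr3:89228806-89229055, plus strand: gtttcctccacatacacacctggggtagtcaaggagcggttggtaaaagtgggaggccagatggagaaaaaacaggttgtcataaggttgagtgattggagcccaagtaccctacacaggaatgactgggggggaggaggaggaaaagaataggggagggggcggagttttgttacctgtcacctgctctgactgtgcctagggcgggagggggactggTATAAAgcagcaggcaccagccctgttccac
Pigr, chr1:130826434-130826683, plus strand: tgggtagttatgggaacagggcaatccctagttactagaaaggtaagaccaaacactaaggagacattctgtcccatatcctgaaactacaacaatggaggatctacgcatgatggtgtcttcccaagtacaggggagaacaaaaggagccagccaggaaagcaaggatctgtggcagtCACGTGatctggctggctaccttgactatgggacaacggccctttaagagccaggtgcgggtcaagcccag
The Glycam1 stretch held TTCCCAGAA at -145 to -137 from the start, a form of TTCNNNGAA that 7.02% of 32851 mouse promoters of this length hold on either strand. None of the other 7 stretches held those letters. Muc1 held TATAAA at -31 to -26 and Muc4 at -36 to -31 (12.4% of promoters), and Pigr held CACGTG at -71 to -66 (6.02%), a motif that was picked after the sequences had been seen. These matches describe letters only, and binding was not measured.

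All 10 genes had a higher mean in IL-21isoTg than in wild-type MECs, and the log2 fold change was largest for Glycam1, Btn1a1, Pigr, Cel and Plin2. By the quasi-likelihood test of edgeR, adjusted by Benjamini-Hochberg, 0 of the 10 genes passed adjusted p under 0.05, as did 0% of the 17165 genes tested, 10 of 10 of the members among them. At an unadjusted p under 0.05, 5 of the 10 genes were higher (Glycam1, Btn1a1, Plin2, Muc1 and Cel) and 0 were lower, against 3.19% of all genes tested that were higher. DESeq2 called 2 genes higher at adjusted p under 0.05 (Glycam1 and Cel), against 0.42% of the genes it tested. In 3 of the 10 genes (Glycam1, Btn1a1 and Cel) every IL-21isoTg library lay above every wild-type library, as in 5.54% of all genes tested. The median log2 fold change over the 10 genes was 1.07, beside -0.02 over all genes tested.

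**Figure D1:**
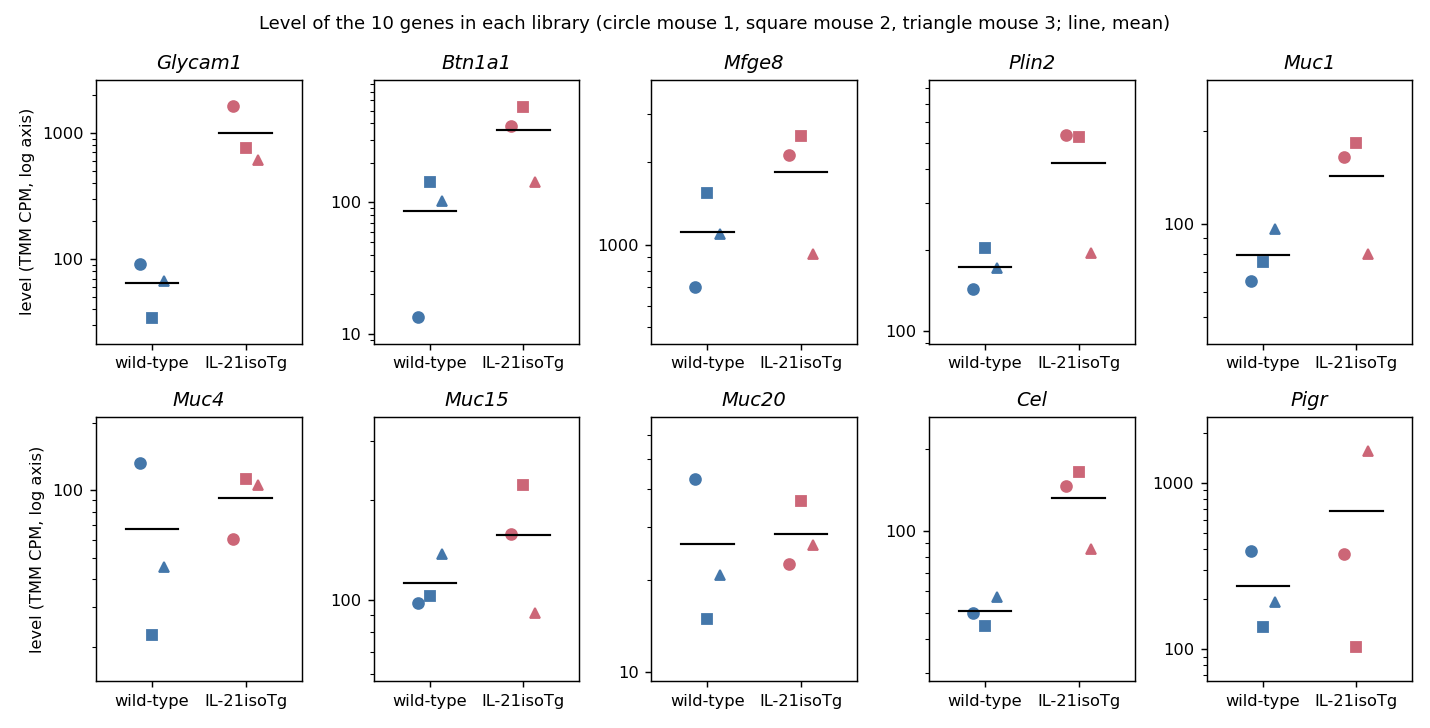
Level of each of the 10 genes (TMM CPM, log axis) in the 3 wild-type and 3 IL-21isoTg libraries, 1 point per mouse with the mean as a line. The groups are separate for Glycam1 and Cel, meet at 142 CPM for Btn1a1 and overlap for the other 7 genes, where IL-21isoTg replicate 3 is often the low transgenic point and, for Pigr, the high one.

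Glycam1 showed the widest difference. Its level was 91.2, 34.4 and 67.5 CPM in wild-type replicates 1 to 3 and 1646, 753 and 615 CPM in IL-21isoTg replicates 1 to 3. The lowest transgenic library was thus several times above the highest wild-type one. The means were 64.4 ± 28.5 and 1005 ± 559.7 CPM (SD, n = 3 each), a 15.6-fold ratio of means and a log2 fold change of 3.96 ± 0.51 (SE). Its adjusted p was 0.168 by edgeR's quasi-likelihood test and 7.74e-15 by DESeq2. Leaving out each library in turn kept the log2 fold change between 3.41 and 4.32, with an edgeR adjusted p of 0.169 to 0.637.

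Because Glycam1 is also a product of high endothelial venules, their markers were read beside it. The 7 listed markers (among them Ccl21a, Madcam1 and Chst4, which sulfates L-selectin ligands) summed to 62.9, 32.2 and 38.0 CPM in wild-type and 219, 82.0 and 28.4 CPM in IL-21isoTg replicates 1 to 3. Of the 5 markers tested, 5 had a log2 fold change above 0 (against 8216 of the 17165 genes tested). At an unadjusted p under 0.05 by edgeR, 3 were higher (against 3.19% of all genes tested). Within each genotype, the 3 mice fell in the same order for Glycam1 and for the summed markers. In IL-21isoTg replicate 3 the summed markers were the lowest of the 6 libraries, and Glycam1 was at 615 CPM there. Chst4 was at 3.49, 1.12 and 0.37 CPM in the transgenic libraries, against 0.27 to 0.62 CPM in wild-type. The 8 general endothelial markers summed to 95.5 to 234 CPM in wild-type and to 146 to 334 CPM in IL-21isoTg. All 8 had a log2 fold change above 0, with a median of 0.84, and 3 were higher at an unadjusted p under 0.05 by edgeR. The part of these cells in the Glycam1 level was not tested.

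By Pearson correlation of log2 CPM over the 6 libraries, the genes whose pattern was most like that of Glycam1 were Gpr153 (r = 0.998), Snx8 (0.995), Mcrip1 (0.985), Gldc (0.982) and Postn (0.981). These are the 5 highest among all genes tested, and the 6 points share their libraries and scaling. The correlation does not measure the size of a difference. In that order, the ratios of means were 1.41, 1.41, 1.21, 33.9 and 1.48, beside 15.6 for Glycam1.

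Btn1a1 stood at 13.4, 142.08 and 103 CPM in wild-type and at 382, 538 and 142.13 CPM in IL-21isoTg replicates 1 to 3. The groups were separated only by the margin between wild-type replicate 2 and IL-21isoTg replicate 3, and wild-type replicate 1 was far below its group. The means were 86.2 ± 66.0 and 354 ± 199 CPM (SD, n = 3 each), with a log2 fold change of 2.04 ± 0.79 (SE) and an edgeR adjusted p of 0.809 (unadjusted 0.0324). Without wild-type replicate 1 the log2 fold change was 1.54.

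Plin2, the droplet coat, was at 143, 203 and 172 CPM in wild-type and at 538, 527 and 195 CPM in IL-21isoTg. Transgenic replicates 1 and 2 were well above wild-type, and replicate 3 fell within the wild-type range. The means were 173 ± 29.8 and 419.9 ± 195 CPM, a log2 fold change of 1.28 ± 0.37 (SE) with an edgeR adjusted p of 0.809 and a DESeq2 adjusted p of 0.0952. Without IL-21isoTg replicate 3 the edgeR adjusted p was 0.169 and the log2 fold change 1.63. Since Plin2 is also made in fat cells, adipocyte markers were summed: the 8 genes reached 69.5, 115 and 73.8 CPM in wild-type and 388, 167 and 92.9 CPM in IL-21isoTg. The highest library for both was IL-21isoTg replicate 1, but Plin2 was nearly as high in IL-21isoTg replicate 2. Scaled to the plain library total, Plin2 was at 503 CPM in IL-21isoTg replicate 1 and 614 CPM in replicate 2. The part of adipocytes in the Plin2 level was not tested.

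Mfge8 had the highest mean CPM of the 10 genes in both genotypes, although Pigr was above it in IL-21isoTg replicate 3. It was at 699, 1545 and 1092.5 CPM in wild-type and 2116, 2489 and 922 CPM in IL-21isoTg. The transgenic library of replicate 3 lay between the wild-type values. The means were 1112 ± 423 and 1842 ± 819 CPM, and the log2 fold change of 0.73 ± 0.43 (SE) had an edgeR adjusted p of 0.810. It was 0.45 without IL-21isoTg replicate 2.

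Among the membrane mucins, Muc1 had the largest difference relative to its error. It was at 65.5, 75.5 and 96.5 CPM in wild-type and at 164, 183 and 80.0 CPM in IL-21isoTg replicates 1 to 3. Again the first 2 transgenic libraries were above all wild-type libraries and replicate 3 was among them. The log2 fold change was 0.85 ± 0.31 (SE), with an edgeR adjusted p of 0.809. Muc15 ranked the mice of each genotype in the same order, at 97.7, 102 and 137 CPM in wild-type and 158, 221 and 91.4 CPM in IL-21isoTg. Its log2 fold change was 0.48 ± 0.31 (SE; edgeR adjusted p = 0.820), and was 0.15 without IL-21isoTg replicate 2 and 0.76 without IL-21isoTg replicate 3.

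Muc4 and Muc20, neighbours on chromosome 16, did not separate the genotypes. Muc4 was at 133, 22.5 and 45.4 CPM in wild-type and at 60.6, 112 and 105 CPM in IL-21isoTg, and wild-type replicate 1 was the highest of all. Muc20 was at 43.0, 14.9 and 20.8 CPM in wild-type and 22.6, 36.5 and 26.1 CPM in IL-21isoTg. The 6 libraries fell in the same order for both genes, which share 627 exonic bp. The ratio of Muc4 to Muc20 counts nevertheless varied from 1.51 to 3.08 in wild-type and from 2.68 to 4.03 in IL-21isoTg libraries. Their log2 fold changes were 0.47 ± 0.58 and 0.11 ± 0.39 (SE), with edgeR adjusted p of 0.892 and 0.966. Without wild-type replicate 1 these were 1.46 and 0.68, and without wild-type replicate 2 they were 0.06 and -0.17.

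Cel had the smallest SD in wild-type mice. It was at 49.9, 44.8 and 57.2 CPM in wild-type and at 146, 164 and 85.9 CPM in IL-21isoTg, so all transgenic libraries were above all wild-type libraries. The means were 50.6 ± 6.26 and 132 ± 40.9 CPM, a 2.61-fold ratio with a log2 fold change of 1.38 ± 0.25 (SE). The edgeR adjusted p was 0.412 and the DESeq2 adjusted p 0.000429. Acinar cells of the pancreas also make this lipase. Of 12 acinar markers, 7 were at 0 in every library, and all 12 together summed to 0.335 to 1.77 CPM. The cell source of the Cel reads was not tested.

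Pigr was at 390.5, 136 and 192 CPM in wild-type and at 375, 103 and 1556 CPM in IL-21isoTg replicates 1 to 3. A single library, IL-21isoTg replicate 3, was above the rest, and the lowest of all was IL-21isoTg replicate 2. The log2 fold change of 1.50 ± 0.86 (SE; edgeR adjusted p = 0.809) was 0.02 without IL-21isoTg replicate 3. Salivary gland epithelium also makes Pigr. Over the 6 libraries log2 Pigr correlated with the log2 summed salivary markers at Pearson r = 0.96 (exact permutation p = 0.00278, Benjamini-Hochberg adjusted 0.0278 over the 10 genes) and Spearman rho = 0.94 (exact permutation p = 0.0167, adjusted 0.167). Without the 2 libraries farthest from the median salivary level, r was 0.94. Within each genotype, the 3 mice also fell in the same order for Pigr and for the salivary share. For the other 9 genes the adjusted p of Pearson r over the 6 libraries was 0.674 or higher. Within wild-type and within IL-21isoTg (3 mice each), r was -0.83 and -0.90 for Btn1a1, and -0.97 and -0.86 for Mfge8. It was -0.98 and -0.75 for Plin2, and -0.18 and -0.84 for Muc1. For Glycam1, Muc4, Muc15, Muc20 and Cel it was above 0 in wild-type and below 0 in IL-21isoTg. A model with the salivary level as a covariate was added after the data had been seen. In it the log2 fold change of Pigr was 0.30, against 3.92 for Glycam1, 1.42 for Cel and 1.40 for Plin2. In the same model Btn1a1 was at 2.51 and Mfge8 at 0.94. The part of salivary gland cells in the Pigr level was not tested.

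**Figure D2:**
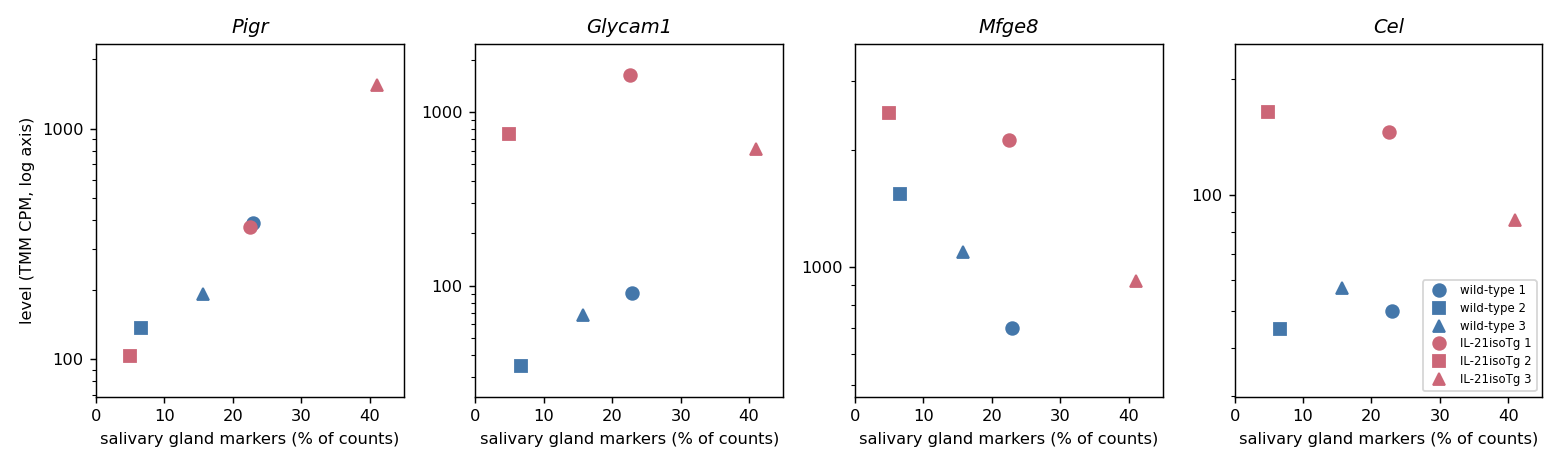
Level of Pigr, Glycam1, Mfge8 and Cel (TMM CPM, log axis) against the percentage of counts in 16 salivary gland markers, 1 point per library. Pigr climbs from 103 to 1556 CPM as the salivary share goes from 4.92% to 41.0% whatever the genotype, while Glycam1 and Cel lie in separate bands for the genotypes and Mfge8 is lower at a higher share within each genotype.

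The relative abundance of the 10 transcripts was compared per kilobase of exon. In wild-type MECs, Mfge8 led at 237 ± 90.2 CPM per kb, and its lowest library was above every library of the next gene. Pigr (59.5 ± 33.3), Plin2 (49.2 ± 8.49), Muc1 (33.7 ± 6.75), Muc15 (31.5 ± 6.05), Glycam1 (30.2 ± 13.4), Cel (24.1 ± 2.98) and Btn1a1 (20.9 ± 16.0) followed, and each overlapped its neighbour in that order. Muc20 (6.52 ± 3.68) and Muc4 (5.69 ± 4.94) were lowest. In IL-21isoTg MECs the highest mean was that of Glycam1, at 471 ± 262 CPM per kb, which overlapped Mfge8 at 392 ± 174. Below them came Pigr (168 ± 192), Plin2 (120 ± 55.5), Btn1a1 (85.9 ± 48.4), Cel (62.7 ± 19.4), Muc1 (60.7 ± 23.4) and Muc15 (43.9 ± 18.2). Muc4 and Muc20 were again the lowest, at 7.89 ± 2.39 and 7.05 ± 1.79 CPM per kb, and in this genotype lay clear of Muc15. All exons of all transcripts were used for length, so a gene such as Glycam1, whose transcripts together cover 2133 bp for a coding length of 453 bp, is understated.

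IL-21isoTg replicate 3 set the spread of most of these genes. Without it, 7 of the 10 genes (Glycam1, Btn1a1, Mfge8, Plin2, Muc1, Muc15 and Cel) did not overlap between genotypes and were higher in IL-21isoTg, against 11.4% of all genes tested. In that fit 0 of the 10 genes passed adjusted p under 0.05 by edgeR, as did 0 of all genes tested. The log2 fold changes of Mfge8, Muc1 and Cel were then 1.05, 1.14 and 1.62. Those of Glycam1, Btn1a1, Muc4 and Muc20 were 4.24, 2.42, 0.38 and 0.17 without that library. With any other single library left out, 3 to 5 of the 10 genes did not overlap and were higher in IL-21isoTg. The share of all genes tested was then 8.25% to 12.6%. When counts were scaled to the plain library total, which includes the salivary transcripts, Glycam1 alone did not overlap (1.13% of all genes tested).

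**Figure D3:**
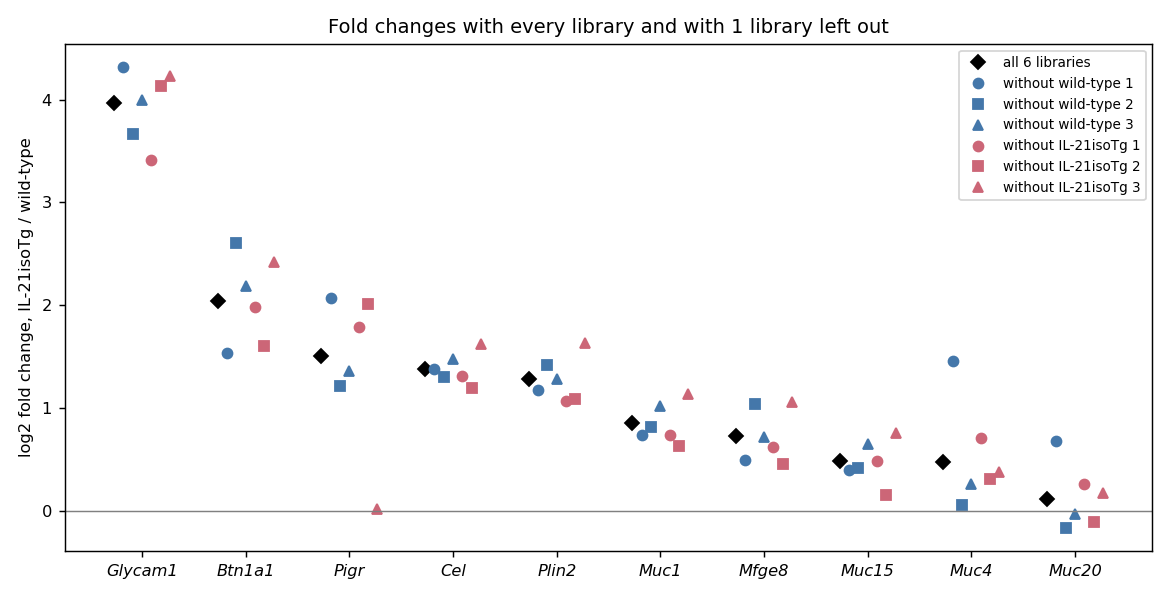
Log2 fold change of each gene (IL-21isoTg over wild-type) with all 6 libraries (black diamonds) and with each library left out in turn (coloured points). Glycam1 stays between 3.41 and 4.32, Pigr goes to 0.02 without IL-21isoTg replicate 3, and Muc20 lies on both sides of 0.

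The partners of these proteins were read from 8 lists, which together held 96 genes, 90 of them in the table and 66 tested. None passed adjusted p under 0.05 by edgeR. At an unadjusted p under 0.05, 15 were higher (against 3.19% of all genes tested) and 1 was lower (against 451 of 17165 genes). DESeq2 called 5 higher (against 0.42% of the genes it tested) and 0 lower. Their median log2 fold change was 0.33. In 14 the groups did not overlap with IL-21isoTg higher (against 5.54% of all genes tested), and in 2, Mucl2 and Galnt4, with IL-21isoTg lower (against 6.54%). Galnt4 was named after its values were seen.

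Of the 11 partners in fat globule secretion, 6 were higher at an unadjusted p under 0.05 (against 3.19% of all genes tested), 4 were called higher by DESeq2 (against 0.42%), and the median log2 fold change was 0.60. That median ranged from 0.40 without IL-21isoTg replicate 3 to 1.08 without IL-21isoTg replicate 1. Xdh, the partner of butyrophilin, was at 49.7, 95.7 and 129 CPM in wild-type and 394, 316 and 301 CPM in IL-21isoTg. All 3 transgenic libraries lay above every wild-type library, IL-21isoTg replicate 3 included. Its log2 fold change was 1.88 ± 0.33 (SE), with an adjusted p of 0.412 by edgeR and 4.07e-05 by DESeq2. Fabp3, a fatty acid carrier, was at 2.48 ± 3.58 CPM in wild-type and 101 ± 62.2 CPM in IL-21isoTg (adjusted p 0.523 by edgeR and 0.0113 by DESeq2). Cd36, a fatty acid transporter found in the globule membrane, was at 27.2 ± 18.8 and 127 ± 71.7 CPM (0.774 and 0.00928). Cidea, which promotes droplet fusion, was at 3.44 ± 1.596 and 11.3 ± 3.43 CPM (edgeR 0.670, DESeq2 0.0102). The SNARE protein gene Snap23 had a log2 fold change of 0.49 ± 0.17 (SE; edgeR adjusted p = 0.809). Cidec, the sixth of these genes, reached 15.88 CPM in IL-21isoTg replicate 1 and was under 2 CPM in the other 5 libraries, at 0 in 2 of them. It is also on the adipocyte list, whose sum was highest in IL-21isoTg replicate 1 (388 CPM). The cell source of the differences in these partner genes was not tested.

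Among 10 genes of the droplet coat and of intracellular lipolysis, 10 had a log2 fold change above 0 (against 8216 of the 17165 genes tested). By edgeR or DESeq2 0 were called, and 5 were higher at an unadjusted p under 0.05 (against 3.19% of all genes tested). These were the coat protein gene Plin5 (1.08), the triglyceride lipase Pnpla2 (0.60), its co-activator Abhd5 (0.64), hormone-sensitive lipase Lipe (0.40) and monoglyceride lipase Mgll (0.91), and in each the transgenic libraries lay above the wild-type ones (as in 5.54% of all genes tested). In the list of 9 neutral lipases related to Cel, 4 were tested and 3 were at 0 in every library. Lpl, lipoprotein lipase, which releases fatty acids from circulating lipoproteins, was at 29.7, 54.1 and 57.0 CPM in wild-type and 181, 118 and 105 CPM in IL-21isoTg. The 2 groups did not overlap, and the log2 fold change of 1.52 ± 0.31 (SE) had an adjusted p of 0.523 by edgeR and 0.00171 by DESeq2. Many of these lipolysis genes, and Lpl, are also expressed in fat cells. All 5 adipocyte markers tested had a log2 fold change above 0, with a median of 1.78. Plin1, Lipe and Cidec are in both kinds of list, and the median is the value of Plin1. The summed level of the adipocyte markers was 69.5 to 115 CPM in wild-type and 92.9 to 388 CPM in IL-21isoTg libraries. The part of adipocytes in these differences was not tested.

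**Figure D4:**
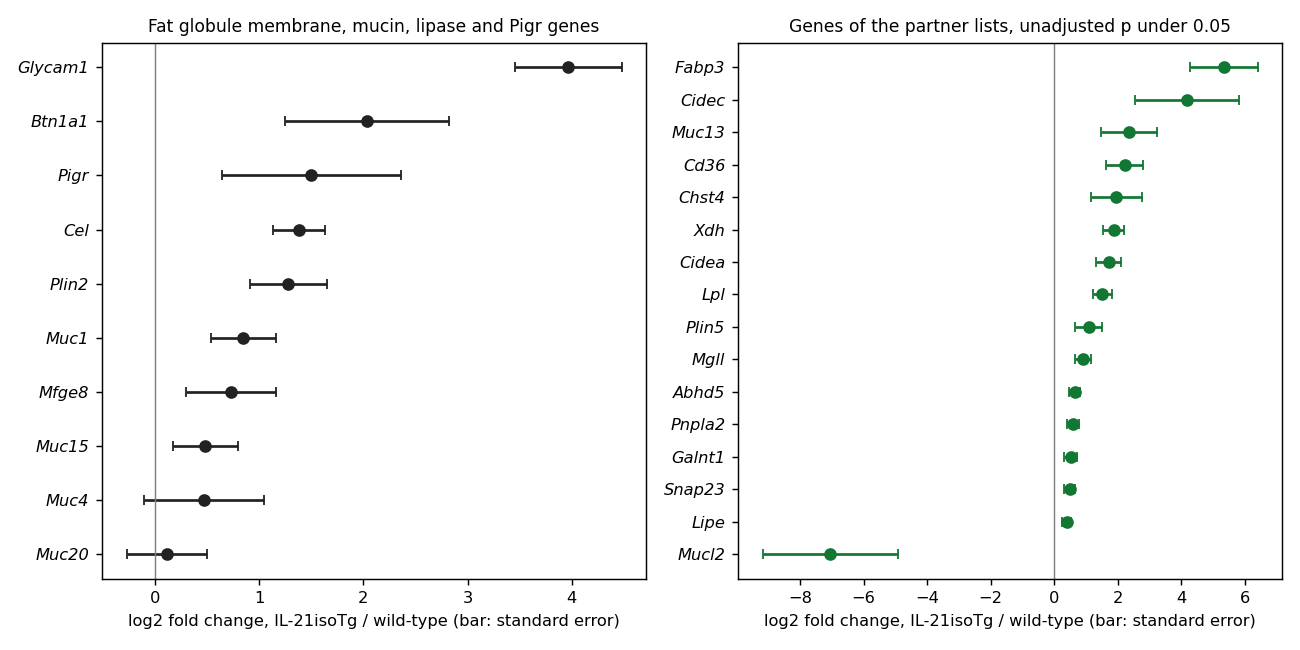
Log2 fold change (IL-21isoTg over wild-type) with its standard error, for the 10 genes on the left and, on the right, for the 16 partner genes with an unadjusted p under 0.05. None of these genes passed an adjusted p under 0.05 by edgeR's quasi-likelihood test. Glycam1 (3.96) has the largest value on the left and Fabp3 (5.34) on the right, and Mucl2 is the single partner below 0.

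Other mucins were mixed. Of 21 listed, 17 were in the table and 9 were tested. At an unadjusted p under 0.05 by edgeR, 1 was higher and 1 lower. Of all genes tested, 3.19% were higher and 451 of 17165 lower at that threshold. Muc13, a membrane mucin of the gut, was at 6.90 ± 5.29 CPM in wild-type and 35.2 ± 29.7 CPM in IL-21isoTg (edgeR adjusted p = 0.809). Mucl2 was at 323 CPM in wild-type replicate 2 and at 0.223 to 5.04 CPM in the other 5 libraries. Its groups did not overlap, with IL-21isoTg lower, but the size of the difference rests on 1 wild-type library. Of the enzymes that build and extend mucin O-glycans, 16 of 19 were tested, with a median log2 fold change of 0.14. Galnt1, which starts the chains, had a log2 fold change of 0.52 ± 0.21 (SE) and Chst4 of 1.96 ± 0.81, and both had an edgeR adjusted p of 0.809.

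Of 11 butyrophilin family genes 2 were tested, Btn2a2 and Btnl9, and both overlapped between genotypes at under 25 CPM. Of 8 partners of MFG-E8 in phosphatidylserine and integrin binding, 7 were tested and 0 had an unadjusted p under 0.05. The integrin chain Itgav was at 146 ± 29.4 and 136 ± 33.7 CPM and the bridging protein Gas6 at 327 ± 143 and 315 ± 122 CPM. All 7 genes of the IgA route were tested, and 0 had an unadjusted p under 0.05. Ccl28, a chemokine that draws IgA-producing cells, was at 14.1, 13.1 and 16.8 CPM in wild-type and 42.0, 5.29 and 53.3 CPM in IL-21isoTg, so that it was lowest in the library with the lowest Pigr and highest in the one with the highest Pigr. Those libraries also had the lowest (4.92%) and highest (41.0%) share of salivary gland markers. The cell source of Ccl28 was not tested. Jchain, which joins dimeric IgA, was at 3.44 ± 2.24 and 2.83 ± 1.10 CPM.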

How the data were processed

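Poly(A) RNA of the MECs was made into directional libraries and read as 150-bp pairs on a NovaSeq instrument. The submitters' processing notes name FastQC 0.11.7, Trimmomatic 0.38, HISAT2 2.1.0, SAMtools 1.9, featureCounts 1.6.3, DESeq2 1.24.0 and the mm10 build. Gene counts were used as deposited by the authors, without normalization; the annotation and the strand setting of the counting are not given in the sources used here. A table of counts scaled by size factors was not used, nor were the columns of the authors' own comparison (mean level, log2 fold change, standard error, statistic and p-values), from which only gene coordinates (start and end) were read and checked against GENCODE gene models.

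Genes passing filterByExpr in edgeR 4.0.16 (minimum count 10, minimum total 15) were fitted in R 4.3.3 by the robust quasi-likelihood test with TMM scaling, genotype as the only term, and Benjamini-Hochberg adjustment over 17165 genes. SE is the log2 fold change divided by the square root of F. Single values were compared by exact permutation tests. Alternatives were DESeq2 1.42.0, limma 3.58.1 (voom), the likelihood ratio test, other scalings and filters, a replicate block, leaving out each library, and the salivary level as a covariate. Scripts were tested on simulated data. The 10 genes and all lists were chosen with earlier results of these data known. All 10 genes are named; from each partner list those with an unadjusted p under 0.05, and otherwise the 2 with the highest mean, were eligible to be named, and so were the 5 genes most correlated with Glycam1. Symbols with 2 rows (Ccl21a and St6galnac2) were read from the row with the larger total. Each mouse gave 1 library, so p-values measure the spread between mice. No pair of replicates agreed within sampling noise. Count floors cover counting error only. Replicate numbers did not pair the mice.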

Additional observations from a re-analysis of the deposited data

How the results depend on the processing

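Of 180 alternative estimates of the 10 fold changes, 170 kept their direction and their side of adjusted p 0.05, 7 newly passed it and 3 turned direction. The number of the 10 genes called higher was 0 by edgeR's quasi-likelihood test, 1 when genes of low count were kept in the table (Cel), 2 by DESeq2, 2 by DESeq2 on all genes without independent filtering and 2 by the likelihood ratio test; it stayed at 0 with the other scalings, the stricter filter, limma-voom, the replicate block and each library left out. Leaving out 1 library put the log2 fold change of Muc20 between -0.17 and 0.68; it was -0.17, -0.03 and -0.11 without wild-type replicate 2, wild-type replicate 3 and IL-21isoTg replicate 2. The cause was not tested. Over all genes, 0 were called by the quasi-likelihood test, against 14 higher when genes of low count were kept, 72 higher and 8 lower by DESeq2, 54 and 7 without its filtering, and 52 and 13 by the likelihood ratio test. Without wild-type replicate 3, 6 genes were called higher, and with the salivary level as a covariate 1 was called lower. Of the partner genes, 5 were called higher by DESeq2, with or without its filtering, 5 higher and 1 lower by the likelihood ratio test, and 1 higher without wild-type replicate 3. The median of the fat globule secretion partners was 0.33 with at least 10 counts in every library, which leaves fewer genes, 1.08 without IL-21isoTg replicate 1, 0.97 without IL-21isoTg replicate 2 and 0.40 without IL-21isoTg replicate 3. Same-numbered mice had correlations of -0.22, 0.07 and -0.06 of their deviations, so the numbers were not treated as pairs; with the replicate block, Glycam1 had a log2 fold change of 3.94 (edgeR adjusted p = 0.148), and 0 of the 10 genes were called. Depth limits these genes little, since the lowest count of any of the 10 in a library was 280.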

Other observations

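Of 12 luminal markers, 8 had a log2 fold change above 0 (against 8216 of the 17165 genes tested). The values ran from -0.61 for Foxa1 to 0.70 for Elf5, with a median of 0.06. Elf5, the transcription factor of alveolar luminal cells, was at 118 ± 19.4 CPM in wild-type and 191 ± 45.1 CPM in IL-21isoTg (edgeR adjusted p = 0.809). All its transgenic libraries lay above all wild-type ones, as in 5.54% of all genes tested. It was the single marker of the 12 whose groups did not overlap. Foxa1 and Elf5 were named after their values were seen. Of 9 fibroblast markers, 8 had a log2 fold change above 0. The collagen genes Col1a1 (572 ± 157 and 1163 ± 203 CPM) and Col3a1 (806 ± 197 and 1528 ± 44.6 CPM) were called by DESeq2 (adjusted p 0.0364 and 0.0194) and not by edgeR. DESeq2 called 0.42% of the genes it tested higher.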
